A study of Mus musculus with 13 samples.

Results

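The lipid droplet of a hepatocyte is a store of triglyceride enclosed by coat proteins, and the 10 genes described here encode proteins that coat it or control the lipase that empties it. They were chosen by name from the 53392 genes of the count table: the lipase inhibitors G0s2 and Hilpda, the lipase Pnpla2, its co-activator Abhd5, the perilipins Plin2, Plin4 and Plin5, and the CIDE proteins Cidea, Cideb and Cidec. Earlier results of these data were known when the genes were chosen. Triglyceride in the droplet is first split by the lipase that Pnpla2 encodes, known as adipose triglyceride lipase. ABHD5 activates this lipase, G0S2 and HILPDA inhibit it, and perilipins on the droplet surface govern the access of lipase and co-activator to the stored fat. CIDE proteins enlarge droplets by passing lipid from one to another, and in liver CIDEB also takes part in loading lipid onto very low density lipoprotein.

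RNaseq was performed on whole liver of 13 female mice, 8 to 14 weeks old, fed 28% of calories as Etoh for 4 weeks. Every mouse carried Albumin-Cre and an rtTA gene behind a loxP-flanked stop at Rosa26, and ASAH+ mice carried TRE-ASAH1 besides. Albumin-Cre limits rtTA to hepatocytes, so Dox (200 mg/l in the diet) induces the acid ceramidase Asah1 in hepatocytes of ASAH+ mice. The ASAH− Etoh-Dox group held 4 mice without TRE-ASAH1 that received Etoh and Dox. The ASAH+ Etoh-Dox group held 5 mice with TRE-ASAH1 that received Etoh and Dox. The ASAH+ Etoh group held 4 mice with TRE-ASAH1 that received Etoh without Dox. ASAH+ and ASAH− mice were littermates. The total count per mouse ran from 17819486 to 35358711, with a median of 24454043.

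Asah1 was measured first, as a check of the groups. Levels are given in CPM, which is a gene's count scaled to the same library total in every mouse. Asah1 stood at 48.68, 40.01, 53.66 and 54.95 CPM in the 4 ASAH− Etoh-Dox mice, at 10310, 9660, 15120, 12720 and 15920 CPM in the 5 ASAH+ Etoh-Dox mice, and at 46.7, 44.2, 46.7 and 48.3 CPM in the 4 ASAH+ Etoh mice. Every induced mouse was far above every other mouse. The log2 fold change of Asah1 was 8.01 (SE 0.20) against ASAH− Etoh-Dox, and its adjusted p was 1.24e-11 (edgeR quasi-likelihood, Benjamini-Hochberg). Against ASAH+ Etoh it was 8.10 (SE 0.21), with an adjusted p of 1.13e-11 (edgeR quasi-likelihood, Benjamini-Hochberg). P-values throughout set a difference or relation against the spread between these mice.

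The tissue carried the markers of liver. All 8 hepatocyte markers had counts in every mouse, with Alb the most abundant, and their summed level averaged 125400 CPM in ASAH− Etoh-Dox, 109900 CPM in ASAH+ Etoh-Dox and 117300 CPM in ASAH+ Etoh. Several members are best known from fat tissue, so 8 adipocyte markers were summed as well. Their sum lay between 18.0 and 34.3 CPM, the leptin gene Lep had no count in any mouse, and the most abundant of the 8 was Lipe, which is also one of the lipolysis genes described further on. Fabp4 followed at 4.93 to 13.5 CPM, highest in an ASAH− Etoh-Dox mouse, and Adrb3 at 0.414 to 2.04 CPM. Adipoq, Plin1, Retn and Cfd had at most 2 counts in any mouse. In whole liver, fewer cells of a type and less RNA per cell cannot be told apart.

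The 3 groups give 3 comparisons. ASAH+ Etoh-Dox against ASAH− Etoh-Dox differs by the transgene with the diet held the same. ASAH+ Etoh-Dox against ASAH+ Etoh differs by Dox among carriers of the transgene. ASAH− Etoh-Dox against ASAH+ Etoh differs by genotype and Dox at once, whose effects cannot be told apart, while Asah1 is induced in neither group. Each group enters a pair of these comparisons, so the comparisons share mice and their values stand side by side below without a test between them.

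Per kilobase of exon, the members spanned a wide range of levels. Averaged over the 13 mice, Plin2 stood highest at 162.5 CPM per kb, followed by Cideb at 122.6, G0s2 at 63.6, Plin5 at 25.8 and Pnpla2 at 23.1 CPM per kb. Abhd5 followed at 3.83, Plin4 at 2.25, Hilpda at 1.52 and Cidec at 1.05 CPM per kb, and Cidea was lowest at 0.01 CPM per kb. Neighbours in this order were not always separated. Plin5 was above Pnpla2 in 7 of 13 mice, Plin4 above Hilpda in 9 of 13 and Plin2 above Cideb in 10 of 13. On the union of exons the order of these pairs thus varied between mice. Abhd5 was above Plin4 in 11 of 13 mice and Hilpda above Cidec in 11 of 13. The remaining neighbours kept their order in 13 of 13 mice. The order of the means over the 13 mice was the same when the longest coding transcript replaced the union of exons. The separation of neighbours changed, as the lowest Plin2, 210.7 CPM per kb, was then above the highest Cideb, 170.8 CPM per kb. The lowest Abhd5, 6.22, was likewise above the highest Plin4, 4.73 CPM per kb. Within ASAH+ Etoh the mean of Pnpla2, 26.8, then stood above that of Plin5, 24.6 CPM per kb.

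**Figure D1:**
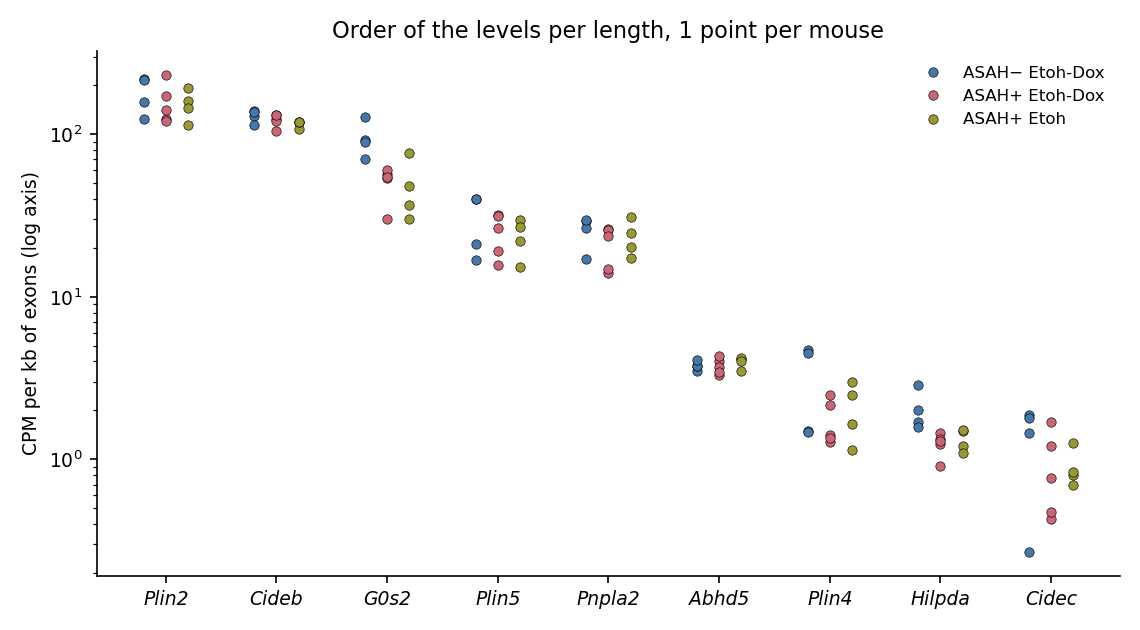
Level of 9 members in each of the 13 mice, in CPM per kb of exon on a log axis, coloured by group. Plin2, Cideb and G0s2 lie at the top and Cidec at the bottom, with Plin5 and Pnpla2 overlapping; Cidea, with 3 counts in all, is not drawn.

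The 2 inhibitors of the lipase were higher in every ASAH− Etoh-Dox mouse than in every ASAH+ Etoh-Dox mouse. Of all genes tested, 127 of 14317 (0.887%) had no overlap between these groups. Neither inhibitor passed edgeR's threshold over all genes in any comparison. Between ASAH+ Etoh-Dox and ASAH+ Etoh the sign of both turned when single mice were left out. G0s2, whose protein binds the lipase and blocks it, is the gene ENSMUSG00000009633.3 on the minus strand at chr1:193272161-193273217. Its level was 80.0, 78.3, 111 and 61.1 CPM in the ASAH− Etoh-Dox mice, 47.0, 26.2, 49.9, 52.1 and 47.4 CPM in the ASAH+ Etoh-Dox mice, and 67.1, 26.2, 31.8 and 41.5 CPM in the ASAH+ Etoh mice. Every ASAH− Etoh-Dox mouse was above every ASAH+ Etoh-Dox mouse, whereas 1 ASAH+ Etoh mouse, at 67.1 CPM, reached into the ASAH− range. Its means were 82.7 ± 20.8 CPM (SD, n = 4), 44.5 ± 10.4 CPM (SD, n = 5) and 41.6 ± 18.1 CPM (SD, n = 4).

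G0s2 was lower in ASAH+ Etoh-Dox than in ASAH− Etoh-Dox in 20 of 20 pairs of mice. The log2 fold change was -0.89 (SE 0.27, 95% confidence interval -1.49 to -0.30), a level 1.86-fold higher without the transgene. The exact two-sided permutation test of this single gene gave p = 0.00794, the smallest p that 4 against 5 mice can give. Groups that do not overlap give this p by themselves. It is not adjusted over the members, which were chosen with earlier results of these data known. Over all genes the difference did not pass: its adjusted p was 0.9996 (edgeR quasi-likelihood, Benjamini-Hochberg), the unadjusted p 0.00639. Without the ASAH− mouse at 111 CPM the log2 fold change was -0.72.

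Between ASAH− Etoh-Dox and ASAH+ Etoh, neither of which induces Asah1, G0s2 was higher in ASAH− Etoh-Dox in 15 of 16 pairs. The log2 fold change was 0.99 (SE 0.29, 95% confidence interval 0.36 to 1.62), with a two-sided exact permutation p of 0.0571, where 4 against 4 mice can give 0.0286 at the least. Its adjusted p was 0.389 (edgeR quasi-likelihood, Benjamini-Hochberg). Between ASAH+ Etoh-Dox and ASAH+ Etoh the log2 fold change was 0.10 (SE 0.28), with 13 of 20 pairs higher and an exact permutation p of 0.659, and with 1 mouse left out it ran from -0.07 (without ASAH+ Etoh replicate 2) to 0.43 (without ASAH+ Etoh replicate 1).

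Hilpda encodes a small droplet protein that inhibits the same lipase and is known to be induced by hypoxia and by fatty acids. The gene ENSMUSG00000043421.8 lies on the plus strand at chr6:29272488-29275446. It was expressed at a low level, with 26 to 78 counts per mouse. Its level was 1.87, 1.73, 3.18 and 2.22 CPM in the ASAH− Etoh-Dox mice, 1.60, 1.01, 1.48, 1.36 and 1.43 CPM in the ASAH+ Etoh-Dox mice, and 1.66, 1.34, 1.21 and 1.68 CPM in the ASAH+ Etoh mice. All 4 ASAH− Etoh-Dox mice were above all 9 mice that carried the transgene, although the lowest of them, at 1.73 CPM, was close to the highest carrier, at 1.68 CPM. The share of all genes with this order against all 9 carriers was not counted. Between ASAH− Etoh-Dox and ASAH+ Etoh alone, 787 of 14317 genes (5.50%) had no overlap. The means were 2.25 ± 0.653 CPM (SD, n = 4), 1.38 ± 0.224 CPM (SD, n = 5) and 1.47 ± 0.234 CPM (SD, n = 4).

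Hilpda had a log2 fold change of -0.70 between ASAH+ Etoh-Dox and ASAH− Etoh-Dox (SE 0.21, 95% confidence interval -1.16 to -0.25), lower in 20 of 20 pairs. The exact two-sided permutation test gave p = 0.00794, again the smallest it can give and not adjusted over the members. The adjusted p over all genes was 0.9996 (edgeR quasi-likelihood, Benjamini-Hochberg). Against ASAH+ Etoh the ASAH− Etoh-Dox mice were higher by a log2 fold change of 0.62 (SE 0.23, 95% confidence interval 0.12 to 1.11) in 16 of 16 pairs, with an exact permutation p of 0.0286, the smallest possible there. Its adjusted p was 0.455 (edgeR quasi-likelihood, Benjamini-Hochberg). Much of the size came from the mouse at 3.18 CPM: without it the log2 fold changes were -0.49 and 0.40. Dox among ASAH+ mice gave a log2 fold change of -0.09 (SE 0.22) between ASAH+ Etoh-Dox and ASAH+ Etoh, which ran from -0.18 to 0.01 with 1 mouse left out.

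The mouse with the highest G0s2 and Hilpda, replicate 3 of ASAH− Etoh-Dox, also had the highest summed level of several marker sets. The summed level of 6 Kupffer cell and macrophage markers was 325, 316, 675 and 401 CPM in the ASAH− Etoh-Dox mice, 442, 451, 237, 384 and 237 CPM in the ASAH+ Etoh-Dox mice, and 315, 245, 267 and 287 CPM in the ASAH+ Etoh mice. All 6 had counts in every mouse, and Cd5l was the most abundant. The summed level of 5 red cell markers, led by Hbb-bs and all detected, was 231, 751, 1712 and 215 CPM in ASAH− Etoh-Dox, 689, 240, 870, 355 and 646 CPM in ASAH+ Etoh-Dox, and 135, 160, 175 and 192 CPM in ASAH+ Etoh. Replicate 3 was the highest of the 13 mice for both marker sets, and also for the hepatocyte (138000 CPM), stellate (275.9 CPM) and endothelial (259.7 CPM) sets, while the ASAH+ Etoh mice were the lowest as a group for both.

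None of the 6 macrophage markers passed edgeR's threshold in any comparison, but 5 of 6 were higher in ASAH− Etoh-Dox than in ASAH+ Etoh at an unadjusted p under 0.05, beside 9.18% of all genes tested. Against ASAH− Etoh-Dox, the induced mice gave a count of 0 of 6, with all 6 values below 0. All 5 red cell markers had an unadjusted p under 0.05 in both comparisons with ASAH+ Etoh, higher in ASAH+ Etoh-Dox (median log2 fold change 1.85) and in ASAH− Etoh-Dox (2.16), and none passed edgeR's threshold. The sum of 6 sinusoidal endothelial markers was 175.5, 147.9, 259.7 and 187.9 CPM in ASAH− Etoh-Dox, 144.1, 154.5, 128.4, 178.7 and 161.6 CPM in ASAH+ Etoh-Dox, and 236.0, 174.1, 208.8 and 220.9 CPM in ASAH+ Etoh. Of the 6, 4 were lower in the induced mice than in ASAH− Etoh-Dox at an unadjusted p under 0.05, beside 2.86% of all genes, and 5 were lower than in ASAH+ Etoh, beside 7.29%. The sum of 6 stellate cell and fibroblast markers averaged 234, 203.5 and 202 CPM in the same order of groups, and that of 6 lymphocyte markers 3.44, 3.62 and 1.96 CPM. At an unadjusted p under 0.05, 2 of 6 stellate and 2 of 6 lymphocyte markers were higher in ASAH− Etoh-Dox than in ASAH+ Etoh, and 2 of 6 lymphocyte markers were higher in ASAH+ Etoh-Dox than in ASAH+ Etoh. Of 8 hepatocyte markers, 2 were lower in ASAH+ Etoh-Dox than in ASAH− Etoh-Dox (median log2 fold change -0.23) and 3 lower than in ASAH+ Etoh (median -0.14) at that p, and none passed edgeR's threshold. The part of these cell types in the levels of G0s2 and Hilpda was not tested.

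G0s2 and Hilpda are shown with their promoters because they had the smallest unadjusted p of the members in both comparisons with ASAH− Etoh-Dox. The windows hold the 250 bases before the RefSeq start site on build GRCm38.p6, read 5′ to 3′ on the gene's strand. The G0s2 window is chr1:193273189-193273438 on the minus strand, and its RefSeq start lies 29 bases inside the gene as GENCODE draws it. The Hilpda window is chr6:29272238-29272487 on the plus strand. Capitals mark the GC box GGGCGG, or its reverse complement CCGCCC.
G0s2: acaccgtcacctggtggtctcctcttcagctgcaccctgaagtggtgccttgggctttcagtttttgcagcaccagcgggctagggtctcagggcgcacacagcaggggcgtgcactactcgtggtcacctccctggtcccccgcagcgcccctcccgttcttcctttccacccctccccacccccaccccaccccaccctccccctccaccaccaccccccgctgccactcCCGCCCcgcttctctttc
Hilpda: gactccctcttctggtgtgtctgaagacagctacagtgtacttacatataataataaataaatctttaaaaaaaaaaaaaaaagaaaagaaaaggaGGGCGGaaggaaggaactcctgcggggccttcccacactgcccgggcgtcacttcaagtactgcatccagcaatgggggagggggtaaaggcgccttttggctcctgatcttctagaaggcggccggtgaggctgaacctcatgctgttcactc
In G0s2 the GC box lies 18 to 13 bases before the start, and in Hilpda 154 to 149 bases before it. GC boxes are common, with 32.7% of 32851 mouse promoters holding one in a window of this length. G0s2 has a GC content of 67.2% there and Hilpda 48.4%, beside a median of 52.4% over all promoters.

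Other motifs were searched on both strands of the 12 start sites that RefSeq gives for 9 of the 10 members. These were the E-box CACGTG of clock and other factors (in 6.02% of all promoters), the D-box TTANGTAA of the DBP family (2.06%), the nuclear receptor sequence AGGTCA (4607 promoters), its direct repeat with 1 base between the copies (0.0335%), the hypoxia element core ACGTG (16.6%) and the TATA box TATAAG (6.65%). ACGTG is part of CACGTG, so any E-box holds it too, and each repeat holds AGGTCA. The TATA box and the GC box were added after the sequences were seen. Apart from the GC boxes marked above, the windows of G0s2 and of the printed Hilpda start site held none of these motifs. A further Hilpda start site, downstream of the printed window, had ACGTG 43 to 39 bases before it. No E-box, D-box or direct repeat was found in any of the 12 windows. A match is a description of the letters alone.

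**Figure D2:**
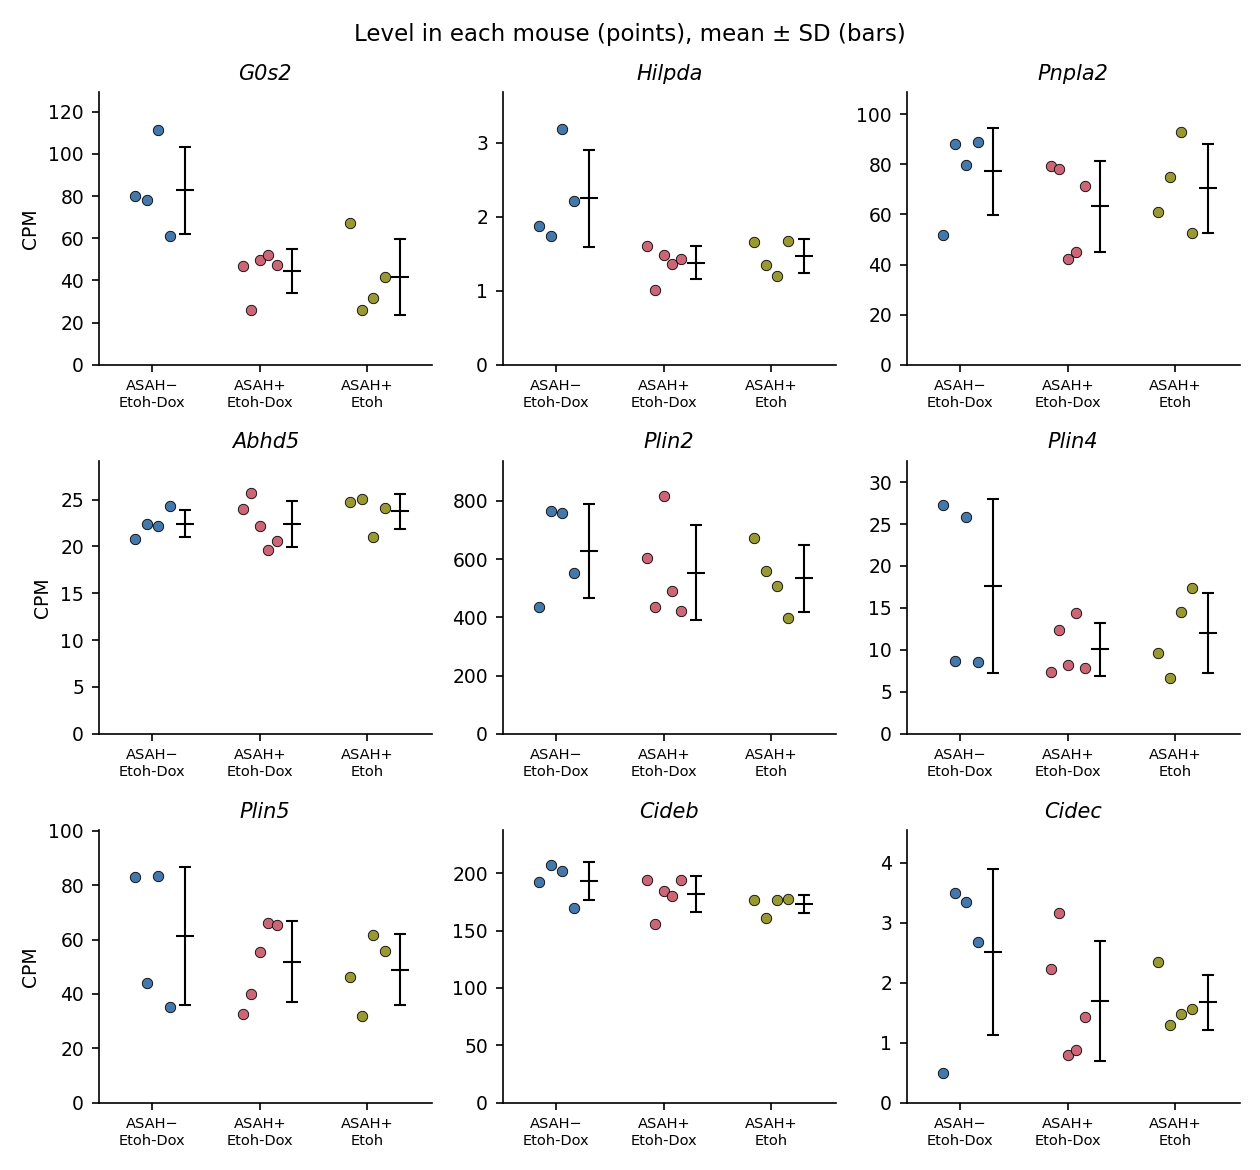
Level of 9 members in each mouse (points, CPM, axes from 0) in the 3 groups, with the mean and SD beside them. The ASAH− Etoh-Dox mice are above all ASAH+ Etoh-Dox mice for G0s2 and Hilpda, while the groups overlap for the other 7 members. No overlap between ASAH− Etoh-Dox and ASAH+ Etoh-Dox was found for 127 of 14317 genes tested (0.887%).

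Pnpla2, the lipase itself (ENSMUSG00000025509.15), varied widely within each group. Its level was 51.8, 87.9, 79.8 and 89.1 CPM in the ASAH− Etoh-Dox mice, 79.1, 77.9, 42.2, 45.1 and 71.5 CPM in the ASAH+ Etoh-Dox mice, and 60.8, 74.9, 93.1 and 52.6 CPM in the ASAH+ Etoh mice. Each group held both low mice near 50 CPM and high mice near 80 CPM or above, and all 3 groups overlapped. The means were 77.2 ± 17.4 CPM (SD, n = 4), 63.2 ± 18.1 CPM (SD, n = 5) and 70.3 ± 17.7 CPM (SD, n = 4). Pnpla2 had a log2 fold change of -0.29 (SE 0.23) between ASAH+ Etoh-Dox and ASAH− Etoh-Dox, with an exact permutation p of 0.262. With 1 mouse left out this ran from -0.43 (without ASAH− Etoh-Dox replicate 1) to -0.17 (without ASAH+ Etoh-Dox replicate 3). Pnpla2 had -0.16 (SE 0.24) between ASAH+ Etoh-Dox and ASAH+ Etoh, and 0.13 (SE 0.25) between ASAH− Etoh-Dox and ASAH+ Etoh, with exact permutation p-values of 0.54 and 0.629.

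Abhd5, the co-activator (ENSMUSG00000032540.16), varied little between mice. It ranged from 19.6 to 25.7 CPM over all 13 mice, with group means of 22.4 ± 1.45 CPM (SD, n = 4), 22.4 ± 2.47 CPM (SD, n = 5) and 23.7 ± 1.90 CPM (SD, n = 4) in the order used above. In the comparisons, its log2 fold changes were -0.00 (95% confidence interval -0.20 to 0.20), whose sign turned in several alternative fits, -0.08 (95% confidence interval -0.28 to 0.12) and -0.08 (95% confidence interval -0.29 to 0.13).

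Among the perilipins, Plin2, the main droplet coat of hepatocytes (ENSMUSG00000028494.12), ranged from 436 to 764 CPM in ASAH− Etoh-Dox, 423 to 815 CPM in ASAH+ Etoh-Dox and 398 to 674 CPM in ASAH+ Etoh. The groups overlapped over most of that range, with means of 628 ± 161 CPM (SD, n = 4), 554 ± 163 CPM (SD, n = 5) and 534 ± 115 CPM (SD, n = 4). Its log2 fold changes were -0.18 (SE 0.22), 0.05 (SE 0.22) and 0.23 (SE 0.24), with exact permutation p-values of 0.492, 0.905 and 0.457. With 1 mouse left out the first ran from -0.35 to -0.07, and the second turned sign, from -0.14 to 0.18. The first interval, -0.66 to 0.30, leaves room for a sizeable difference in either direction.

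Plin4, a perilipin known best from fat and muscle (ENSMUSG00000002831.13), split the ASAH− Etoh-Dox mice. Its level was 27.2, 8.67, 25.9 and 8.54 CPM there, 7.38, 12.4, 8.20, 14.4 and 7.85 CPM in the ASAH+ Etoh-Dox mice, and 9.58, 6.63, 14.5 and 17.3 CPM in the ASAH+ Etoh mice. A pair of ASAH− mice, replicates 1 and 3, stood above all others, and the other pair lay within the range of the carriers. Plin4 had a log2 fold change of -0.80 (SE 0.40, 95% confidence interval -1.68 to 0.07) between ASAH+ Etoh-Dox and ASAH− Etoh-Dox, with an exact permutation p of 0.214. It was -0.50 without replicate 1 and -0.55 without replicate 3.

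Plin5, which binds lipase and co-activator at the droplet and tethers droplets to mitochondria (ENSMUSG00000011305.11), was high in the same pair of mice. Its level was 83.1, 44.1, 83.3 and 35.3 CPM in ASAH− Etoh-Dox, 32.6, 40.2, 55.4, 66.0 and 65.2 CPM in ASAH+ Etoh-Dox, and 46.3, 32.0, 61.6 and 55.9 CPM in ASAH+ Etoh. Low and high mice occurred in each group, and the groups overlapped. Its log2 fold changes were -0.24 (SE 0.30), 0.08 (SE 0.30) and 0.33 (SE 0.32) in the 3 comparisons, with exact permutation p-values of 0.556, 0.802 and 0.457. With 1 mouse left out the first ran from -0.44 (without ASAH− Etoh-Dox replicate 4) to -0.05 (without ASAH− Etoh-Dox replicate 1), and the second turned sign, from -0.08 to 0.21.

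Plin4 and Plin5 are neighbours on chromosome 17, on the same strand and 1797 bases apart, and their promoters are shown because the levels of both genes followed each other over the mice. The windows, from RefSeq on build GRCm38.p6, are chr17:56109783-56110032 for Plin4 and chr17:56117549-56117798 for Plin5, both on the minus strand. Capitals mark TATAAG in both, and in Plin5 also AGGTCA and GGGCGG.
Plin4: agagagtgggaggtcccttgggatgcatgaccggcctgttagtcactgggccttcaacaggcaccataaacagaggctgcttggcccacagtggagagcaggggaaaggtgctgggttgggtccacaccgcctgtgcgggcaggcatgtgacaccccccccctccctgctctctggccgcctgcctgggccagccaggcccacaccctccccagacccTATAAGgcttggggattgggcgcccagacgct
Plin5: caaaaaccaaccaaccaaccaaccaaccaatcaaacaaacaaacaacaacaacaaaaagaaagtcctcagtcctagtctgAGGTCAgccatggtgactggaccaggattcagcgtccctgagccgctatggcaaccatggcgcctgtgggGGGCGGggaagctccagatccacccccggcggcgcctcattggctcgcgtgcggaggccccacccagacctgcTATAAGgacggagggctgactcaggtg
TATAAG lies 32 to 27 bases before the start in Plin4 and 27 to 22 bases before it in Plin5. These 2 were the only windows of the 12 with TATAAG, which 6.65% of all promoters hold. As TATAAG was added to the search after these sequences were seen, this is a description only. AGGTCA lies 170 to 165 bases before the start of Plin5, and its reverse complement 69 to 64 bases before the start of Abhd5 and 218 to 213 bases before that of Plin2.

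The CIDE genes differed among themselves in level and in spread. Cideb (ENSMUSG00000022219.10), the liver member, was abundant and even, at 170 to 207 CPM in ASAH− Etoh-Dox, 156 to 194 CPM in ASAH+ Etoh-Dox and 161 to 178 CPM in ASAH+ Etoh. Its log2 fold changes were -0.09 (SE 0.08), 0.07 (SE 0.08) and 0.16 (SE 0.09), and in the last of these ASAH− Etoh-Dox was higher in 13 of 16 pairs with an exact permutation p of 0.114. Cidec (ENSMUSG00000030278.11), which enlarges droplets in fat and in fatty liver, was sparse, at 11 to 91 counts per mouse. Its level was 0.5018, 3.504, 3.343 and 2.680 CPM in ASAH− Etoh-Dox, 2.24, 3.17, 0.795, 0.882 and 1.43 CPM in ASAH+ Etoh-Dox, and 2.35, 1.30, 1.48 and 1.56 CPM in ASAH+ Etoh.

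The lowest Cidec of all 13 mice was in the same group as the highest, and the groups overlapped. Its log2 fold changes were -0.55 (SE 0.48), 0.04 (SE 0.50) and 0.59 (SE 0.52), with exact permutation p-values of 0.548, 0.786 and 0.743, and the second turned sign with 1 mouse left out, from -0.31 to 0.25. Without ASAH− Etoh-Dox replicate 2 the first of these was -0.35, without ASAH+ Etoh-Dox replicate 2 it was -0.90, and without ASAH− Etoh-Dox replicate 1 it was -0.88 (unadjusted p 0.0359 in edgeR's quasi-likelihood test, 0.9974 after Benjamini-Hochberg adjustment). Cidea, the CIDE protein of brown fat, had 3 counts in all, 1 in each of 3 mice and 0 in the other 10 mice. It did not pass the count filter, and a difference between groups was not detectable at this depth, where 3 counts correspond to 0.0829 to 0.173 CPM.

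Taking the members as a list, which was chosen with earlier results of these data known, 9 of 10 were tested. By edgeR (quasi-likelihood, Benjamini-Hochberg), 0 of 9 passed an adjusted p of 0.1 between ASAH+ Etoh-Dox and ASAH− Etoh-Dox, where 2 of 14317 genes (0.0140%) passed. Those 2 genes were Asah1 and Sod1, which encodes superoxide dismutase and is named after its value was seen. By DESeq2 on all 13 mice and by limma-voom the count was also 0, and by DESeq2 on these groups alone it was 1, G0s2, with an adjusted p of 0.0996 from DESeq2 among 11 of 19040 genes (0.0578%). At an unadjusted p under 0.05 edgeR gave 2 of 9, G0s2 and Hilpda, both lower in the induced mice, beside 409 of 14317 genes (2.86%). The same 2 members had groups that did not overlap, as did 127 of 14317 genes (0.887%).

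For Dox among ASAH+ mice (ASAH+ Etoh-Dox against ASAH+ Etoh), edgeR called 0 of 9 members and 2 of 14317 genes (0.0140%), again Asah1 and Sod1. DESeq2 on these groups and limma-voom also called 0 of 9 members. DESeq2 on all 13 mice called 0 of the 3 members (Pnpla2, Plin2 and Cideb) that its own filtering left with an adjusted p. No member had an unadjusted p under 0.05, which 1043 of 14317 genes had (7.29%), and none had groups without overlap, which 369 genes had (2.58%).

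Where Asah1 was induced in neither group (ASAH− Etoh-Dox against ASAH+ Etoh), edgeR called 0 of 9 members and 2 of 14317 genes (0.0140%), the mitochondrial mt-Co2 and mt-Co3, which are named after their values were seen. DESeq2 gave an adjusted p to 7 of the 9 members here, and none to Hilpda and Cidec. G0s2 was called by DESeq2 on all 13 mice, with an adjusted p of 0.0586 among 149 of 8625 genes (1.73%). It was also called by DESeq2 on these groups, with an adjusted p of 0.0599 among 168 of 10699 genes (1.57%), and limma-voom called 0 members. At an unadjusted p under 0.05 edgeR gave 2 of 9 members, G0s2 and Hilpda, beside 1314 of 14317 genes (9.18%). Hilpda alone had groups without overlap, as did 787 of 14317 genes (5.50%).

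The median log2 fold change of the 9 members was -0.29 between ASAH+ Etoh-Dox and ASAH− Etoh-Dox, beside -0.00 over all genes tested. All 9 had a value below 0, as did 7254 of 14317 genes, although that of Abhd5 was close to 0 and turned positive in several alternatives. With Dox against without it in ASAH+ mice 5 were above and 4 below 0, with a median of 0.04 beside 0.01 over all genes. In the comparison without induction 8 were above and 1 below 0, with a median of 0.33 beside 0.02. These counts are a description of the list, and most of its single values were within their error.

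**Figure D3:**
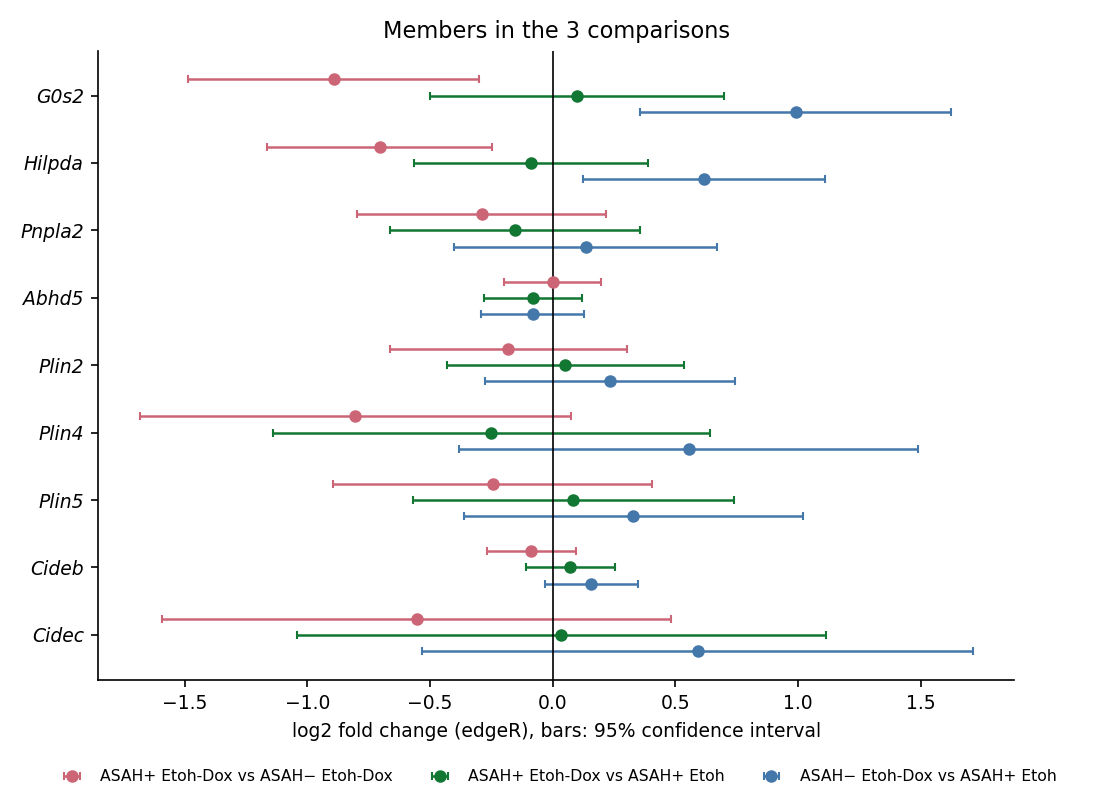
Log2 fold change of 9 members in the 3 comparisons (points) with 95% confidence intervals (bars) from edgeR. The intervals of G0s2 and Hilpda lie off 0 in the comparisons with ASAH− Etoh-Dox, and all other intervals cross 0.

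The spread between mice of a group differed widely among members. As the within-group SD of log2 CPM it was 0.88 for Cidec, 0.67 for Plin4, 0.50 for Plin5, 0.46 for G0s2 and 0.40 for Pnpla2, against a median of 0.24 over 14317 genes. Cidec was at the 96.9th percentile of the tested genes and Plin4 at the 93.8th. Plin2 had 0.37 and Hilpda 0.28, while Abhd5 with 0.13 and Cideb with 0.11 were at the 16.4th and 11.1th percentiles.

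Several members are known to follow the daily cycle of the liver, and the clock genes of these mice spanned a wide range. The time of day at which each liver was collected is not given in the sources used here. As a measure of clock phase, the log2 ratio of Dbp to Arntl was -0.96, 6.58, 1.82 and 6.21 in the ASAH− Etoh-Dox mice, 6.76, 6.91, -1.66, 0.15 and 2.72 in the ASAH+ Etoh-Dox mice, and 4.48, 6.14, 5.09 and 1.60 in the ASAH+ Etoh mice. Low and high ratios occurred in both Etoh-Dox groups. The slope of each gene on this ratio was fitted in edgeR beside the 3 group means, an analysis chosen after seeing the data.

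Pnpla2 and Cidec had a positive slope and Plin5 a negative one, 3 of 9 members at an adjusted p under 0.1, beside 1377 of 14317 genes (9.62%). The slope of Pnpla2 was 0.105 log2 units per unit of the ratio (SE 0.018, 95% confidence interval 0.067 to 0.144), with an adjusted p of 0.00373 (edgeR quasi-likelihood, Benjamini-Hochberg). That of Plin5 was -0.120 (SE 0.028), with an adjusted p of 0.0271 (edgeR quasi-likelihood, Benjamini-Hochberg). The slopes had opposite signs, but Pnpla2 and Plin5 were not themselves related past the threshold (r = -0.40, permutation p = 0.178, adjusted 0.415 over 36 pairs). Both slopes were called in every alternative tried for the slope, with adjusted p-values of at most 0.0222 and 0.0898.

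The slope of Cidec was 0.191 (SE 0.053), with an adjusted p of 0.0508 (edgeR quasi-likelihood, Benjamini-Hochberg). Its call was lost without ASAH− Etoh-Dox replicate 1 (0.144), and without ASAH+ Etoh-Dox replicate 2 (0.141), replicate 3 (0.1001) or replicate 4 (0.120), all adjusted p-values from the same test. Plin4 had a slope of -0.119 (SE 0.050) that did not pass (adjusted p 0.216, edgeR quasi-likelihood, Benjamini-Hochberg). It passed with DESeq2 (0.0784) and in edgeR without ASAH+ Etoh-Dox replicate 2 (0.0702) or replicate 3 (0.0625). The slopes of G0s2 (-0.063, SE 0.038), Hilpda (-0.028, SE 0.031), Abhd5 (0.023, SE 0.012), Cideb (-0.009, SE 0.012) and Plin2 (-0.002, SE 0.033) did not pass.

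The promoter of Pnpla2 is shown because its slope had the smallest adjusted p of the members. The window, from RefSeq on build GRCm38.p6, is chr7:141454938-141455187 on the plus strand, and capitals mark the GC box GGGCGG at 109 to 104 bases and its reverse complement at 26 to 21 bases before the start.
Pnpla2: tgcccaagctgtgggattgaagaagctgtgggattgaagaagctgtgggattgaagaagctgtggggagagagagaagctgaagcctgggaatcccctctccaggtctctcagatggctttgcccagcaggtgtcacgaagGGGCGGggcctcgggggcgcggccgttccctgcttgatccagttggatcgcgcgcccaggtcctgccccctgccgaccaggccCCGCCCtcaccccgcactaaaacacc
Its GC content is 63.2%, and neither CACGTG nor TTANGTAA occurs in the window.

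Correlations with the ratio over the 13 mice passed an adjusted p of 0.1 for the same 3 members and for Abhd5, whose slope did not pass. The ratio and Pnpla2 had r = 0.84 (permutation p = 0.00067, adjusted 0.00603 over 9 relations) and rho = 0.73 (permutation p = 0.0062, adjusted 0.0293). Without the 2 mice farthest from the median ratio r was 0.74, within the 9 Etoh-Dox mice 0.88, and for deviations from the group means 0.88. The ratio and Plin5 had r = -0.77 (permutation p = 0.00295, adjusted 0.0129) and rho = -0.73 (permutation p = 0.00651, adjusted 0.0293), with r = -0.82 without the 2 farthest mice and -0.81 within the 9 Etoh-Dox mice.

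For the ratio and Cidec r was 0.74 (permutation p = 0.00431, adjusted 0.0129) and rho 0.68 (permutation p = 0.0142, adjusted 0.0426), but r was 0.51 without the 2 farthest mice, so part of the relation rests on them. Within the 9 Etoh-Dox mice r was 0.84. The ratio and Abhd5 had r = 0.61 (permutation p = 0.0288, adjusted 0.0648) and rho = 0.63 (permutation p = 0.0247, adjusted 0.0556), with r = 0.61 without the 2 farthest mice and 0.74 within the 9 Etoh-Dox mice. Of the 9 relations, those of G0s2, Hilpda, Plin2, Plin4 and Cideb had adjusted p-values from 0.137 to 0.916. For deviations from the group means Plin4 passed as well, with r = -0.59 (permutation p = 0.0387, adjusted 0.0697). A second score built from 6 other clock genes had r = 0.99 with the ratio and called the same 4 members in these relations at an adjusted p under 0.1.

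**Figure D4:**
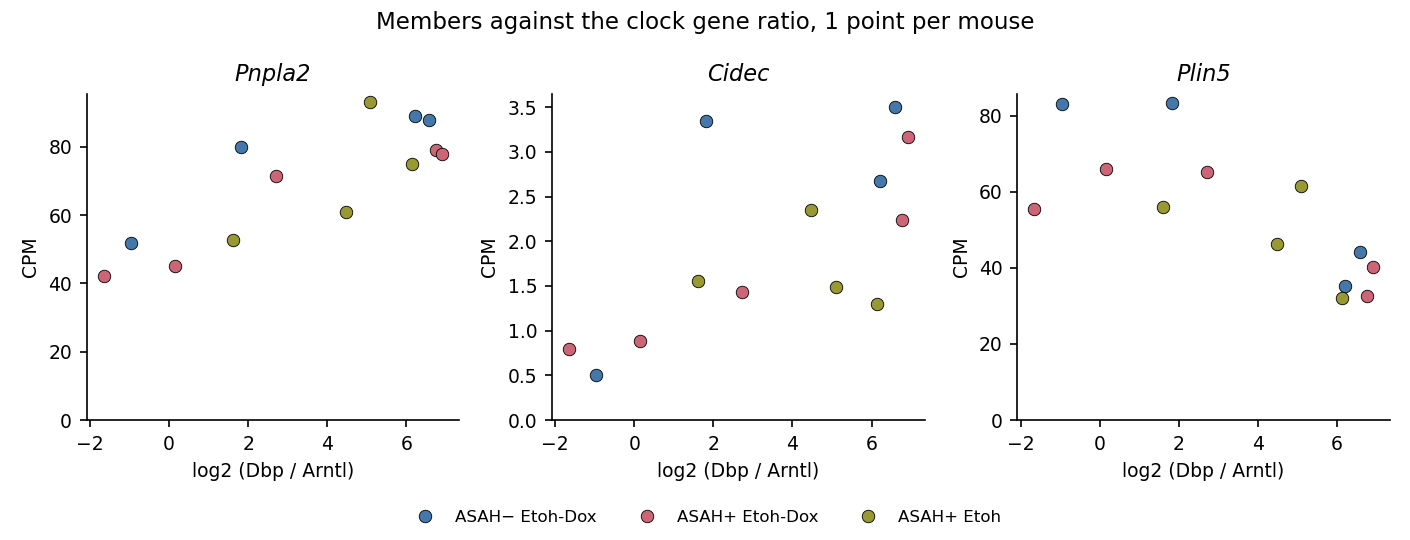
Level (CPM) of Pnpla2, Cidec and Plin5 against the log2 ratio of Dbp to Arntl, 1 point per mouse, coloured by group. Pnpla2 and Cidec are higher and Plin5 is lower at high ratios over the 13 mice, while Cidec shows no such order among the 4 ASAH+ Etoh mice.

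Among the 36 pairs of tested members, 5 had an adjusted p under 0.1 for r over the 13 mice. The inhibitors G0s2 and Hilpda formed the closest pair, with r = 0.85 (permutation p = 0.00015, adjusted 0.0054) and rho = 0.81 (permutation p = 0.00109, adjusted 0.0392). Without the 2 farthest mice r was 0.81, and 0.89 within the 9 Etoh-Dox mice. For deviations from the group means r was 0.70 (permutation p = 0.00819, adjusted 0.059), so the pair also varied together inside the groups over all 13 mice. The r of these deviations was not taken without the 2 farthest mice. G0s2 and Cideb had r = 0.76 (permutation p = 0.00272, adjusted 0.0326) and rho = 0.59 (permutation p = 0.0379, adjusted 0.23), with r = 0.64 without the 2 farthest mice and 0.75 within the 9 Etoh-Dox mice.

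The neighbours Plin4 and Plin5 had r = 0.78 (permutation p = 0.00215, adjusted 0.0326) and rho = 0.74 (permutation p = 0.00587, adjusted 0.0704), with r = 0.57 without the 2 farthest mice and 0.74 within the 9 Etoh-Dox mice. Abhd5 and Plin5 ran against each other, with r = -0.76 (permutation p = 0.004, adjusted 0.036), rho = -0.76 (permutation p = 0.00375, adjusted 0.0675), r = -0.77 without the 2 farthest mice and -0.76 within the 9 Etoh-Dox mice. Pnpla2 and Cidec had r = 0.73 (permutation p = 0.00536, adjusted 0.0386), rho = 0.69 (permutation p = 0.0112, adjusted 0.101), r = 0.60 without the 2 farthest mice and 0.89 within the 9 Etoh-Dox mice. Pnpla2, Cidec and Plin5 had slopes on the clock ratio and Abhd5 was correlated with it. For G0s2 and Hilpda no relation with the ratio passed, and the intervals of their slopes (-0.146 to 0.020 and -0.095 to 0.039) leave room for one.

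**Figure D5:**
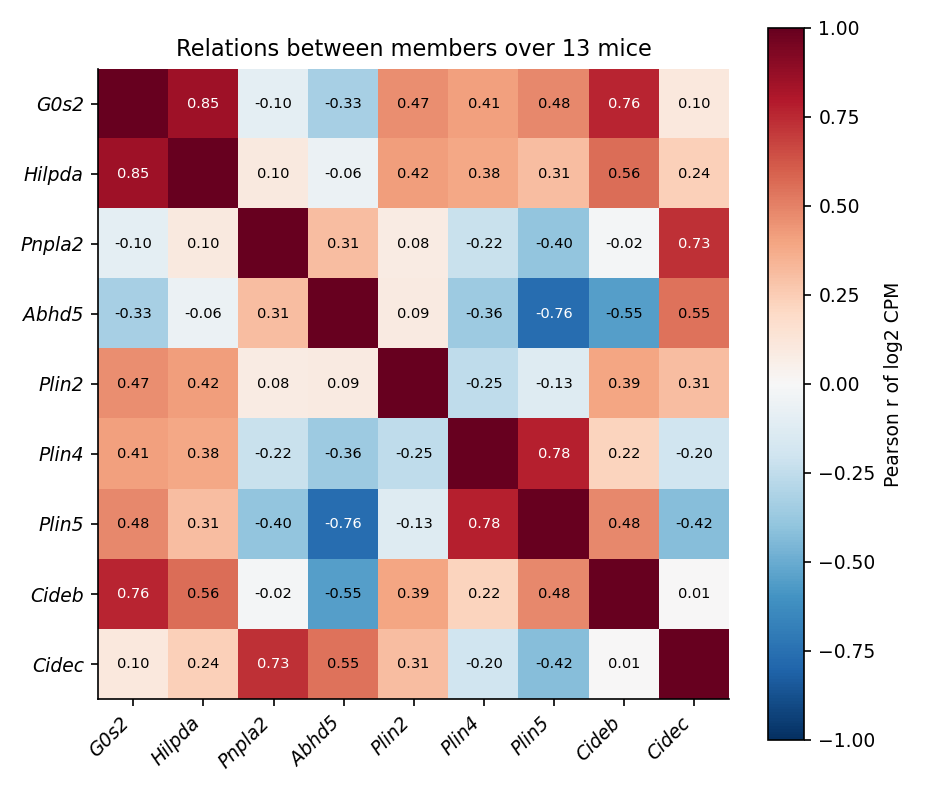
Pearson r of log2 CPM over the 13 mice for each pair of 9 members, printed in each square and coloured from blue (negative) to red (positive). G0s2 and Hilpda give the highest value, 0.85, and Abhd5 and Plin5 the lowest, -0.76.

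Other genes of lipolysis showed little between the groups. Of 20 listed genes 19 were tested, and 0 passed edgeR's threshold in any comparison. At an unadjusted p under 0.05 the counts were 0, 1 and 0 in the 3 comparisons, beside 2.86%, 7.29% and 9.18% of all genes, and DESeq2 and limma-voom called none of the genes of this list that are named here. Median log2 fold changes were 0.04, -0.03 and 0.02. The 1 gene was Ddhd2, a phospholipase that also cleaves triglyceride, with a log2 fold change of -0.43 (SE 0.18) between ASAH+ Etoh-Dox and ASAH+ Etoh. Ces1g, a liver carboxylesterase, had -0.41 (SE 0.22) between ASAH+ Etoh-Dox and ASAH− Etoh-Dox, and Lipa, the lysosomal acid lipase, had 0.20 (SE 0.11).

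On the clock ratio 5 of the 19 were called, beside 9.62% of all genes tested. Lipe, the hormone-sensitive lipase that acts after Pnpla2, had a slope of 0.110 (SE 0.021), Ces1d, a liver triglyceride hydrolase, 0.106 (SE 0.020), Abhd6 0.092 (SE 0.021) and Ces1f 0.050 (SE 0.016). Lipa ran the other way, with -0.041 (SE 0.012). Lipe and Ces1d were called in every alternative. The call of Ces1f was lost without any 1 of 11 mice, that of Abhd6 without ASAH− Etoh-Dox replicate 1 (adjusted p 0.112), and that of Lipa without ASAH+ Etoh-Dox replicate 1, 2, 3 or 4 (adjusted p 0.172, 0.135, 0.18 and 0.110) (edgeR quasi-likelihood, Benjamini-Hochberg).

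Of 28 listed genes of droplet formation and further coat proteins, 24 were tested and 0 passed edgeR's threshold between groups. The counts at an unadjusted p under 0.05 were 0, 2 and 2, near the 2.86%, 7.29% and 9.18% of all genes, and the medians were -0.03, -0.04 and -0.01. The 2 genes were the same in both comparisons with ASAH+ Etoh. Mogat1, an acyltransferase that makes diacylglycerol, had log2 fold changes of -1.41 (SE 0.31) in ASAH+ Etoh-Dox and -1.20 (SE 0.33) in ASAH− Etoh-Dox, both against ASAH+ Etoh. Its adjusted p was 0.383 and 0.389 (edgeR quasi-likelihood, Benjamini-Hochberg), and DESeq2 on the groups compared called the first, with an adjusted p of 0.0312. Gpat4, which starts glycerolipid synthesis, had -0.21 (SE 0.08) and -0.24 (SE 0.08).

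Plin3, the remaining widely expressed perilipin, had log2 fold changes of -0.30 (SE 0.16) between ASAH+ Etoh-Dox and ASAH− Etoh-Dox and 0.28 (SE 0.17) between ASAH− Etoh-Dox and ASAH+ Etoh. On the clock ratio 3 of the 24 were called, beside 9.62% of all genes tested, which is close to the share in this list. Fitm2, which helps droplets bud from the ER, had a slope of 0.120 (SE 0.030), Mettl7a1 0.068 (SE 0.015) and Agpat2, an acyltransferase of glycerolipid synthesis, -0.094 (SE 0.014). The call of Fitm2 was lost without ASAH− Etoh-Dox replicate 1 (adjusted p 0.161, edgeR quasi-likelihood, Benjamini-Hochberg).

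Genes of fasting and of PPAR alpha, the receptor that turns on fatty acid oxidation and several droplet genes, numbered 20, all tested. With edgeR 0 passed, and 0, 1 and 1 (Creb3l3) had an unadjusted p under 0.05, beside 2.86%, 7.29% and 9.18% of all genes. Of 20 values 18 were below 0 between ASAH+ Etoh-Dox and ASAH− Etoh-Dox, with a median of -0.17 beside -0.00 over all genes. For ASAH+ Etoh-Dox against ASAH+ Etoh 16 of 20 were below 0, with a median of -0.14 beside 0.01, and for ASAH− Etoh-Dox against ASAH+ Etoh 11 of 20, with a median of -0.04 beside 0.02. In the first comparison the smallest p among them was that of Creb3l3, a liver transcription factor of the fasting response, with -0.21 (SE 0.10) there and 0.23 (SE 0.10) between ASAH− Etoh-Dox and ASAH+ Etoh, followed by Igfbp1 with -0.83 (SE 0.51). Fgf21, a hormone made by the fasted liver, had 0.95 (SE 0.44) between ASAH− Etoh-Dox and ASAH+ Etoh.

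On the clock ratio 4 of these 20 were called, beside 9.62% of all genes tested, among them Cpt1a with a slope of 0.055 (SE 0.018), Ppara with 0.052 (SE 0.015) and Ppargc1a with -0.087 (SE 0.023). The calls of these 3 were lost without ASAH− Etoh-Dox replicate 1, with adjusted p-values of 0.337, 0.276 and 0.234 (edgeR quasi-likelihood, Benjamini-Hochberg). Cpt1a also lost its call without any 1 of 10 further mice. Ppara lost it as well without ASAH− Etoh-Dox replicate 4 (0.1205) and without ASAH+ Etoh-Dox replicate 1 (0.1133), 2 (0.1293) or 4 (0.1194), and Ppargc1a without ASAH− Etoh-Dox replicate 4 (0.1048), all adjusted p-values of the same edgeR quasi-likelihood test.

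PPAR gamma and lipogenic genes numbered 14, all tested, and edgeR called 0. The counts at an unadjusted p under 0.05 were 3 higher between ASAH+ Etoh-Dox and ASAH− Etoh-Dox, 1 higher and 1 lower between ASAH+ Etoh-Dox and ASAH+ Etoh, and 2 lower between ASAH− Etoh-Dox and ASAH+ Etoh, beside 2.86%, 7.29% and 9.18% of all genes. Medians were 0.08, -0.21 and -0.25. Pparg itself had 0.32 (SE 0.12) and 0.31 (SE 0.12) in the first pair of comparisons, Mlxipl had 0.36 (SE 0.15) in the first (named after its value was seen), and Mogat1 is on this list too. Me1, the malic enzyme that supplies NADPH to lipogenesis, had 0.47 (SE 0.17) in the first and -0.45 (SE 0.17) in the last, where DESeq2 on the groups compared called it with an adjusted p of 0.0119. On the clock ratio 0 of 14 were called by edgeR, and 4 had a negative slope at an unadjusted p under 0.05, as had 1431 of 14317 genes.

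The 12 clock genes were all tested, with 0 called between groups by edgeR and 0 at an unadjusted p under 0.05. Medians were 0.12, -0.04 and -0.19, and single genes varied so much between mice that Npas2 had a log2 fold change of 2.55 (SE 1.43) between ASAH+ Etoh-Dox and ASAH+ Etoh. Their slopes on the ratio were called for 9 of 12, beside 9.62% of all genes tested. These 9 include Dbp and Arntl, whose own calls follow from how the ratio is made. Among the others were Per3 with 0.483 (SE 0.028), Tef with 0.242 (SE 0.018) and Npas2 with -0.670 (SE 0.040). The slope of Pnpla2, 0.105, was smaller in size than those of Per3, Tef and Npas2, and close to those of Lipe and Ces1d. Other clock genes had slopes as small or smaller, such as Per1 with 0.106 (SE 0.073) and Cry1 with -0.044 (SE 0.036), which were not called.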

How the data were processed

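Liver RNA of 13 mice was sequenced as single reads of 100 bases from strand-specific libraries. The deposited table holds estimated counts per gene, which the authors made with Salmon (version not given) on GRCm38.p6 transcripts, summed to genes and rounded, so that 100% of the values are whole numbers. For ASAH+ mice, sample titles and sample descriptions contradict each other on Dox, each stating the opposite of the other, and the descriptions, which match the induction labels, were used. The level of Asah1 was checked against them. Other measurements of the study were not analysed here.

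Of 53392 genes 28557 had a count, and 53355 were found in GENCODE M21, which gave positions and exon lengths. Counts were scaled by TMM and filtered by filterByExpr in edgeR 4.0.16 (R 4.3.3), which left 14317 genes. The 3 comparisons were contrasts of 1 robust quasi-likelihood fit with 3 group means, Benjamini-Hochberg adjusted over all genes tested, with a threshold of 0.1. CPM of single mice are scaled by TMM, and log2 CPM has a prior count of 2. Each member was also tested by a two-sided exact permutation over all 126 (4 against 5 mice) or 70 (4 against 4) divisions. Correlations were tested with 100000 resamples (scipy 1.17.1, Python 3.11.15). The code was tested on simulated data.

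Alternatives were DESeq2 1.42.0 on all mice or on the groups compared, limma-voom (limma 3.58.1), DESeq2 size factors, edgeR on the groups compared, other count filters, Asah1 left out of the totals, a non-robust dispersion, replicate numbers fitted as a block, the clock ratio as a covariate, an adjusted p of 0.05, and each mouse left out in turn. The slope on the clock ratio and its alternatives were chosen after seeing the data. Members and lists were chosen with earlier results of these data known. Genes named beyond the members were those past the threshold and, for each list and comparison, the 2 with the smallest p in each direction. Intervals and the floor of 3 counts cover counting error and spread between mice only, since PCR copies were counted without molecular identifiers.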

Additional observations from a re-analysis of the deposited data

Results flagged for a closer look

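A mouse was far from the rest of its group when its gap to the nearest other mouse, as a share of the group's range, was above Dixon's 95% critical value. Of 54 groups of values examined 3 held such a mouse, and chance flags about 1 in 20 groups. G0s2 stood at 26.2 CPM in ASAH+ Etoh-Dox replicate 2, with the other 4 mice at 47.0 to 52.1 CPM (0.803 of the range). Cideb stood at 161.1 CPM in ASAH+ Etoh replicate 2, with the others at 176.5 to 177.5 CPM (0.939 of the range). The summed lymphocyte markers stood at 1.962 CPM in ASAH− Etoh-Dox replicate 1, with the others at 3.774 to 4.144 CPM (0.830 of the range). Technical and biological sources of these values were not tested.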

How the results depend on the processing

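Of 648 values of members under alternatives 616 kept direction and side of the threshold, 3 passed it and 29 turned direction. For the other named genes these were 1435, 2 and 20 of 1457. Of 144 values of member slopes on the clock ratio 131 kept both, 4 lost their call, 3 gained a call and 6 turned direction. Of 192 slope values of other named genes 156 kept both and 36 lost their call. The cause was not tested.

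Genes called between ASAH+ Etoh-Dox and ASAH− Etoh-Dox numbered 2, but 12 with DESeq2 on all 13 mice, 11 with DESeq2 on the groups compared (with 1 member), 1 with edgeR on the groups compared, and 1 to 2 with a mouse left out. Between ASAH+ Etoh-Dox and ASAH+ Etoh the 2 became 98 and 114 with DESeq2, 4 with no count filter, and 2 to 8 with a mouse left out (8 without ASAH+ Etoh replicate 2). For ASAH− Etoh-Dox against ASAH+ Etoh the 2 became 149 and 168 with DESeq2 (1 member each), 0 with edgeR on the groups compared, 1 with the clock covariate, 0 at an adjusted p of 0.05, and 0 to 2 with a mouse left out. DESeq2 on all 13 mice kept 1982 genes and 3 members in the second comparison after its own filtering.

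Values that kept their sign also moved with a mouse left out. For ASAH+ Etoh-Dox against ASAH− Etoh-Dox the log2 fold change was -1.01 to -0.72 for G0s2, -0.81 to -0.49 for Hilpda, -0.43 to -0.17 for Pnpla2, -0.35 to -0.07 for Plin2, -1.03 to -0.50 for Plin4, -0.44 to -0.05 for Plin5, -0.14 to -0.04 for Cideb and -0.90 to -0.35 for Cidec. For ASAH+ Etoh-Dox against ASAH+ Etoh it was -0.28 to -0.00 for Pnpla2, -0.15 to -0.04 for Abhd5, -0.46 to -0.03 for Plin4 and 0.04 to 0.12 for Cideb. For ASAH− Etoh-Dox against ASAH+ Etoh it was 0.81 to 1.32 for G0s2, 0.40 to 0.72 for Hilpda, 0.00 to 0.28 for Pnpla2, -0.15 to -0.05 for Abhd5, 0.10 to 0.36 for Plin2, 0.24 to 0.78 for Plin4, 0.13 to 0.52 for Plin5, 0.12 to 0.21 for Cideb and 0.39 to 0.91 for Cidec. Of the other named genes, Plin3 was -0.40 to -0.14, Ces1g -0.51 to -0.23, Lipa 0.12 to 0.26, Creb3l3 -0.26 to -0.15, Igfbp1 -1.06 to -0.60, Pparg 0.25 to 0.39 and Me1 0.31 to 0.59 in the first of these comparisons. In the second, Ddhd2 was -0.55 to -0.26, Mogat1 -1.58 to -1.18, Gpat4 -0.27 to -0.19, Pparg 0.22 to 0.36 and Npas2 1.71 to 3.24. Over all of its 23 alternatives the lowest value of Npas2 there was 0.61. In the last, Plin3 was 0.12 to 0.38, Creb3l3 0.15 to 0.27, Fgf21 0.61 to 1.16, Mogat1 -1.44 to -0.98, Gpat4 -0.29 to -0.20 and Me1 -0.51 to -0.40.

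The log2 fold change of Abhd5 between ASAH+ Etoh-Dox and ASAH− Etoh-Dox, -0.000828, became 0.00758 with Asah1 left out of the totals, 0.00475 with DESeq2 on all mice, 0.00250 with DESeq2 size factors, 0.00728 with edgeR on the groups compared, 0.00753 with the clock covariate, 0.0104 with no count filter, and -0.0549 to 0.0429 with a mouse left out. Between ASAH+ Etoh-Dox and ASAH+ Etoh, Cidec was -0.0988 with limma-voom and -0.307 to 0.246 with a mouse left out, Plin5 -0.0990 with the clock covariate and -0.0753 to 0.206, G0s2 -0.0730 to 0.427, Hilpda -0.181 to 0.00546, and Plin2 -0.140 to 0.183. With the clock covariate Arntl was -0.0825 there and -0.216 between ASAH− Etoh-Dox and ASAH+ Etoh. With a mouse left out Acadm was -0.0399 to 0.0986, Npas2 -0.942 to 1.68 and Per3 -0.727 to 0.365 between ASAH+ Etoh-Dox and ASAH− Etoh-Dox, and Arntl -0.0454 to 1.48, Cd36 -0.00594 to 0.306 and Fabp4 -0.292 to 0.277 between ASAH− Etoh-Dox and ASAH+ Etoh.

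With the replicate block 1 gene was called between ASAH+ Etoh-Dox and ASAH− Etoh-Dox, 2 between ASAH+ Etoh-Dox and ASAH+ Etoh, and 0 between ASAH− Etoh-Dox and ASAH+ Etoh. The replicate block gave 0.0240 for Abhd5, -0.0195 for Acadm and 0.156 for Npas2 in the first comparison and -0.0225 for Cidec in the second. Same-numbered mice had a mean r of -0.046 in their deviations from the group means (12 pairs), others 0.013 (44 pairs), and 0 of 12 mice were most alike to a same-numbered mouse, so the numbers were not taken to pair mice.

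Genes with a called slope on the clock ratio numbered 1377, but 1745 with DESeq2, 1410 with limma-voom, 1473 with the second score, 854 at an adjusted p of 0.05 and 637 (without ASAH− Etoh-Dox replicate 1) to 1617 with a mouse left out. The slope of Plin2, -0.00243, became 0.00578 with limma-voom, 0.000697 with the second score and -0.0308 to 0.0487 with a mouse left out.

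Groups of 4 and 5 mice limit which differences pass a test, and whole liver mixes cell types. Hilpda, Cidec and Cidea had few counts. The time of collection is not given in the sources used here, and the clock ratio was read from the same RNA as the members. Transcript levels do not give the amount or activity of the proteins, and lipid was not analysed here.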

Other observations

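Among 14317 genes, those most alike to G0s2 over the 13 mice were Gng5 (r = 0.90), Arhgap1 (0.89), Irf4 (0.88), Ccdc71 and A430010J10Rik (0.85). For Hilpda they were Irf4 (0.87), A430010J10Rik (0.85), G0s2 (0.85), Sparc (0.83) and Ecscr (0.82). For Abhd5 they included Plekha8 (0.93), Itsn2 (0.89), Pdcd10 (0.89) and Usp16 (0.87). For Plin2 they were Pdss1 (0.83), Lrrc39 (0.81), Cavin3 (0.81), Gm13835 (0.80) and Rab30 (0.80). These values are the highest of a search and carry no test.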
